A study of Mus musculus with 2 samples.

Results

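The genes described here encode the cytosolic sensors of foreign or misplaced nucleic acid and the proteins that relay their signal. The 10 genes were chosen by name, as Ifih1, Rigi, Dhx58, Mavs, Cgas, Sting1, Tbk1, Ikbke, Irf3 and Zbp1, and all 10 were found among the 16881 transcripts of the deposited table. RNA was sequenced from 2 cultures of immortalised mouse embryonic fibroblasts of the C57BL/6 strain, 1 with the genotype p65-/- (p65-null) and 1 with the genotype p65+/+ (wild-type). The gene Rela encodes p65, a subunit of the transcription factor NF-kB, and the comparison is of gene expression with it and without it. The labels name no stimulus, virus or transfected nucleic acid. They state neither how the cells were immortalised nor whether a culture was derived from 1 clone.

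RIG-I (gene Rigi, listed as Ddx58 in the RefSeq gene table) and MDA5 (Ifih1) are helicases that bind viral RNA in the cytosol and signal through the mitochondrial adaptor MAVS. LGP2 (Dhx58) is a related helicase without the signalling domains, and it modulates the other RIG-I-like receptors. cGAS (Cgas) binds DNA and makes the cyclic dinucleotide cGAMP, which activates the adaptor STING (Sting1), while ZBP1 binds nucleic acid in the Z conformation. Both adaptors engage the kinases TBK1 and IKK-epsilon (Ikbke), which phosphorylate the transcription factor IRF3, and this leads to the induction of type I interferon. Fibroblasts are a classical cell type for this pathway, and several of its components are themselves interferon-inducible.

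With a single library (1) per genotype, nothing here is replicated and p-values are left out. Sequencing gave 15441394 fragments (read pairs) for p65-null and 20794476 for wild-type. Levels are normalised CPM (fragments per 1000000 of the scaled library size), and 12135 genes averaging 1 CPM or more are called measured. Ratios set p65-null over wild-type and are followed in brackets by 95% intervals (Clopper-Pearson) for counting error alone. Positions of genes are in the build GRCm38. Rela itself had 13.1 CPM in p65-null cells and 90.5 CPM in wild-type cells, a log2 ratio of -2.79 (-3 to -2.57), in the direction of the labels. The cultures also differed in a cell cycle inhibitor gene often lost in immortalised cells, in body-position genes and in sex-linked genes: Cdkn2a had 3 and 1693.5 fragments, Hoxb9 1 and 1083, Hoxa11 680 and 0, Xist 2 and 956, and Kdm5d 207 and 0, in p65-null and wild-type cells. The loss of p65 and other differences between the 2 cultures cannot be told apart in any result below.

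The fibroblast label was checked against 14 marker genes, of which 13 were found and all 13 were measured, with summed levels of 27559 CPM in p65-null cells and 13047 CPM in wild-type cells. Of these, 6 were higher by 2-fold or more in p65-null cells, and 1 was lower by 2-fold or more, Thy1, at 9.64 CPM against 82.9 CPM. With ribosomal protein scaling 3 were higher and 2 lower, and after correction for GC content and length 4 were higher and 1 lower. Over all measured genes, 12.2% were higher by 2-fold or more and 13.7% lower. Genes of macrophages, which are rich in these sensors, summed to 11.1 CPM in p65-null cells and 22.5 CPM in wild-type cells over 10 genes found, 6 of them under 1 CPM in both. The pan-leukocyte gene Ptprc had 0 fragments in p65-null cells and 2 in wild-type cells. Dendritic cell genes summed to 21.2 CPM and 4.62 CPM over 5 genes, of which Bst2, itself interferon-inducible, gave 16 CPM and 2.34 CPM. Lymphocyte, endothelial and epithelial genes summed to 0.231, 3.89 and 2.81 CPM in p65-null cells and to 0.0472, 3.4 and 0.118 CPM in wild-type cells. The part of these markers in the results was not tested. In bulk RNA, more cells expressing a gene and more RNA per cell cannot be told apart.

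The sensor and relay genes were on the whole higher in p65-null cells, and the size of the difference varied widely between them. Of the 9 measured members, 4 were higher by 2-fold or more in p65-null cells (Ifih1, Dhx58, Ikbke and Sting1) and 0 were lower by 2-fold or more, where 12.2% of all measured genes were higher by 2-fold or more and 13.7% lower by 2-fold or more. The tenth member, Zbp1, lay under the expression minimum and had a ratio past 2-fold as well, so that 5 of all 10 were past it. With no minimum, 15.5% of 14348 genes were higher by 2-fold or more. Ifih1 and Dhx58 had levels under 1 CPM in wild-type cells and passed the minimum only through p65-null cells, so the counts of measured members partly reflect the minimum. These 2 were also the measured members past 4-fold higher, where 4.38% of measured genes were, and nothing is read from that count. For 3 members the whole interval lay past 2-fold higher, as for 7.94% of measured genes. The counting interval lay wholly above 0 for 7 of the 9 measured members, wholly below 0 for Tbk1 and across 0 for Mavs. Over all measured genes it lay wholly above 0 for 38.1% and wholly below 0 for 41.2%. The median log2 ratio of the measured members was 0.85, and that of all measured genes -0.03. The members were chosen with results of these libraries known, so these counts describe them and are not independent evidence.

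**Figure D1:**
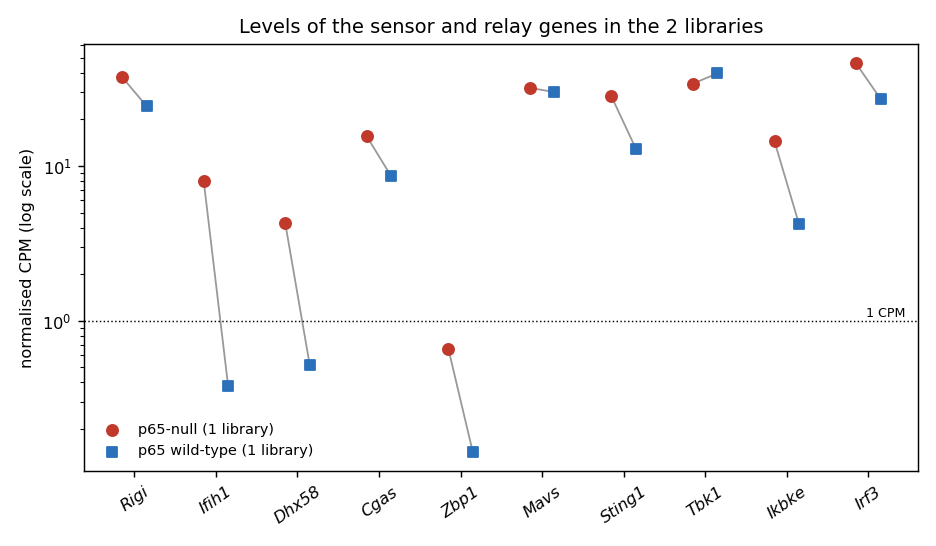
Normalised CPM (log axis) of the 10 genes, grouped from sensors to IRF3, in p65-null cells (circles) and wild-type cells (squares), with 1 library each. Ifih1 stood at 7.99 against 0.377 CPM and Dhx58 at 4.26 against 0.519 CPM, while Mavs and Tbk1 each had similar levels in p65-null and wild-type cells; the dotted line marks 1 CPM.

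Among the RIG-I-like receptors, Ifih1 (transcript NM_027835, chromosome 2, 62595618 to 62646255) differed most. It had 121 fragments in p65-null cells and 8 in wild-type cells, or 7.99 against 0.377 CPM. This is a 21.2-fold higher level in p65-null cells (10.4 to 50.1), a log2 ratio of 4.40 (3.38 to 5.65), and 98.9% of measured genes had a smaller ratio. After a correction for the GC content and length of the transcript, the log2 ratio was 5.07. Dhx58 (NM_030150, chromosome 11, 100694884 to 100704271) had 64.5 fragments in p65-null cells and 11 in wild-type cells, or 4.26 against 0.519 CPM, and was 8.21-fold higher (4.33 to 17.4). Of its transcript, 5.85% is shared with exons of Dhx58os on the opposite strand, and the sources used here do not say if strand was used in counting.

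Rigi (NM_172689, chromosome 4, 40203777 to 40239825) was the abundant receptor of the family in both libraries and differed far less. It had 566 fragments (37.4 CPM) in p65-null cells and 516 (24.3 CPM) in wild-type cells, a 1.53-fold higher level (1.36 to 1.73) that lies within 2-fold. The family was therefore composed differently in the 2 cultures. Per kilobase of transcript, Rigi stood 6.6 times above Ifih1 in p65-null cells and 91.1 times above it in wild-type cells, and Rigi made up 74.9% and 95.7% of the summed level of the 3 receptors. Setting 2 genes against each other within a library removes the scaling of library sizes. The Ifih1 to Rigi ratio was 13.8 times higher in p65-null cells (6.68 to 32.9), and the Dhx58 to Rigi ratio 5.38 times (2.78 to 11.4). Between Ifih1 and Dhx58 the same measure was 2.55, and its interval (0.883 to 7.69) held 1.

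The promoters of these receptors were searched for the core letters bound by IRF-type factors, GAAANNGAA, on both strands. The reason was that several members are known interferon-inducible genes. The window ran from 250 bases before to 50 bases after the start given by each promoter entry. The RefSeq sequences of GRCm38.p6 held entries for 7 of the 10 members, without Dhx58, Sting1 and Zbp1. The motif occurred in 8.56% of all 32851 promoters and in 6.74% of those of measured genes. Among the 7 members it occurred in Ifih1 and Rigi, with 2 matches and 1 match, and in none of Mavs, Cgas, Tbk1, Ikbke and Irf3. The stretch upstream of Ifih1 is shown because it lies before the member with the largest ratio, with the match in capitals, which begins 112 bases before the start and reads on the opposite strand. The other matches begin at base 33 of the Ifih1 transcript and at base 4 of the Rigi transcript, and 30 bases around each are shown, with the match in capitals.
Ifih1 upstream: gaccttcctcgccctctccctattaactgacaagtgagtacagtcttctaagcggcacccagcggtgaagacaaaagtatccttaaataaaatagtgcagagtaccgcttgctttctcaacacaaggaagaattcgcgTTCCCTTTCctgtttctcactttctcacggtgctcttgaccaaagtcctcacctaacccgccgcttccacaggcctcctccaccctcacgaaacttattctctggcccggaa
Ifih1 start: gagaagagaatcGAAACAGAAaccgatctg
Rigi start: ctgaggcagtTTCGATTTCctatggccagc
The first stretch lies on the minus strand within chr2:62646206-62646505, the second at chr2:62646206-62646235 and the third at chr4:40239803-40239832. The STAT motif TTCNNNGAA, found in 8.3% of all promoters, and the kappaB consensus, found in 4.51%, had 0 matches in the 7 windows. A match is only a match of letters, and an absent one says nothing about binding elsewhere.

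The DNA sensor and its adaptor were both higher, by about the same factor. Cgas (NR_125721, chromosome 9, 78430518 to 78443237) had 234.5 fragments in p65-null cells and 181.5 in wild-type cells, or 15.5 against 8.56 CPM. Its level was 1.81-fold higher (1.48 to 2.20), within 2-fold, and its log2 ratio was 0.85, or 1.15 after the GC and length correction, which is past 2-fold. The table lists this gene, and Irf3, under a transcript that RefSeq numbers as non-coding, and the sources used here do not say how reads were shared among transcripts of 1 gene. Of the Cgas transcript, 4.96% is shared with exons of Gm8093 on the opposite strand.

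Sting1 (NM_028261, chromosome 18, 35733678 to 35740554), the adaptor downstream of cGAS, had 426 fragments in p65-null cells and 273.5 in wild-type cells, or 28.1 against 12.9 CPM. It was 2.18-fold higher (1.86 to 2.54), so its interval reached below 2-fold, and the log2 ratio of 1.12 was 0.89 corrected for GC and length, and 0.72 with ribosomal protein scaling. The Sting1 to Cgas ratio within a library was 1.2 times higher in p65-null cells, with an interval (0.934 to 1.55) that held 1. The 2 genes of the DNA arm together stood at 16.1 CPM per kilobase in p65-null cells and 7.73 in wild-type cells.

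Mavs (NM_144888, chromosome 2, 131234063 to 131248025), the adaptor of the RNA arm, was at nearly the same level in both cultures. It had 482.5 fragments (31.9 CPM) in p65-null cells and 635.5 (30 CPM) in wild-type cells, a log2 ratio of 0.09 (-0.09 to 0.26). The sign turned under 2 alternatives, to -0.23 after the GC and length correction and -0.32 with ribosomal protein scaling. The adaptors of the RNA and DNA arms therefore stood in a different proportion: per kilobase, Sting1 was at 1.17 times the level of Mavs in p65-null cells and at 0.572 times in wild-type cells. That ratio was 2.05 times higher in p65-null cells (1.68 to 2.49), and it does not depend on how the libraries were scaled.

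The 2 kinases, which are close relatives, had unlike ratios. Ikbke (NM_019777, chromosome 1, 131254600 to 131279601) had 218.5 fragments in p65-null cells and 89.5 in wild-type cells, or 14.4 against 4.22 CPM, and was 3.42-fold higher (2.65 to 4.40). Up to 1.23% of its transcript is shared with exons of a gene on the opposite strand, Gm28914. Tbk1 (NM_019786, chromosome 10, 121546455 to 121586794) had 515.5 fragments (34 CPM) in p65-null cells and 838.5 (39.6 CPM) in wild-type cells, 1.16-fold lower (1.04 to 1.3). Its log2 ratio of -0.22 became 0.07 after the GC and length correction, and that of Ikbke went from 1.77 to 1.43. The corrected ratios of the 2 kinases were thus closer together. Tbk1 remained the more abundant kinase per kilobase in both, by 2.54 times in p65-null cells and 10.1 times in wild-type cells. Without that correction, the Ikbke to Tbk1 ratio was 3.95 times higher in p65-null cells (3 to 5.24). Ikbke made up 28.3% of the summed kinase level there, against 9.03% in wild-type cells.

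The promoters of the 2 kinases are shown because the genes are relatives with unlike ratios. They cover the 250 bases before the start given by each promoter entry, on the minus strand within chr1:131279514-131279813 and chr10:121586745-121587044 (GRCm38.p6). For Ikbke that start lies inside the gene, whose coordinates reach 131279601, so the last bases of its stretch are within the gene. The IRF-type core, the STAT motif and the kappaB consensus had 0 matches in either window, so nothing is in capitals.
Ikbke upstream: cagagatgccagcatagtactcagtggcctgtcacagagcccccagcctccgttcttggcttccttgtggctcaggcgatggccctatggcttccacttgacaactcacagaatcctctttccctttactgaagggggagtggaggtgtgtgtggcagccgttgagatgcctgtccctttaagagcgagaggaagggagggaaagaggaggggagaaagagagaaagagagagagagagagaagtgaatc
Tbk1 upstream: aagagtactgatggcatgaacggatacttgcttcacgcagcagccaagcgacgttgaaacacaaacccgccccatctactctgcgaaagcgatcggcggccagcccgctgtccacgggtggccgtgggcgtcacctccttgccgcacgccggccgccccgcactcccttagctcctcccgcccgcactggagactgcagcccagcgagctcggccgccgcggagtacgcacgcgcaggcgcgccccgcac
They differed in base composition. Over the whole window of 300 bases, Ikbke held 4 CG dinucleotides at a GC content of 54%, and Tbk1 held 37 at 69%, where the median promoter of a measured gene held 21 at 61%. The Ikbke stretch contains a run of alternating G and A close to the start of its promoter entry, at least partly within the gene. Ifih1, Rigi, Cgas, Irf3 and Mavs held 14, 15, 16, 18 and 19 CG dinucleotides. Tbk1 had the lowest ratio of the members before the GC and length correction. After it the lowest was Mavs, at a log2 ratio of -0.23 against 0.07 for Tbk1. In CG dinucleotides, Tbk1 was the single member of the 7 above the median of measured genes. This is a description of 7 genes, and CG content was not tested against the ratio.

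Irf3 (NR_045611, chromosome 7, 44997648 to 45002848), the factor on which the relay ends, was the most abundant member per kilobase in both libraries. It had 696 fragments (45.9 CPM) in p65-null cells and 574 (27.1 CPM) in wild-type cells, 1.70-fold higher (1.52 to 1.90) and within 2-fold. The log2 ratio of 0.76 was 0.15 after the GC and length correction, the transcript having the highest GC content of the 10, at 56.7%. Irf3 shares 8 exon bases with Bcl2l12 on the opposite strand, a neighbour that had 15.2 CPM in p65-null cells and 8.59 CPM in wild-type cells, a log2 ratio of 0.82 (0.54 to 1.11). Irf7, the interferon-inducible relative of Irf3, had 5.22 CPM in p65-null cells against 0.236 CPM in wild-type cells, on 79 and 5 fragments. Irf7 and Irf9 were the 2 genes higher by 2-fold or more among 5 other IRF genes, of which 0 were lower and whose median was 0.82. Over all measured genes, 12.2% were higher and 13.7% lower by 2-fold or more. Irf7 passed the minimum only through p65-null cells. Irf5 was at -0.90 (-1.09 to -0.71), or -1.47 corrected. The Irf7 to Irf3 ratio was 13 times higher in p65-null cells (5.30 to 41.5).

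Zbp1 (NM_021394, chromosome 2, 173206612 to 173218959) was barely detected. It had 10 fragments in p65-null cells and 3 in wild-type cells, or 0.66 against 0.142 CPM, and its 4.66-fold ratio has an interval from 1.20 to 26.4. Its partners in cell death were taken as a list of 8 genes. Of the 7 measured, 0 were higher by 2-fold or more and 1 was lower, where 12.2% and 13.7% of all measured genes were. Ripk3, the kinase that ZBP1 recruits, had 0.5 and 1 fragment in p65-null and wild-type cells, so no ratio is given. Mlkl, which carries out necroptosis, was at 27.8 and 28.4 CPM, a log2 ratio of -0.03 (-0.21 to 0.15). The lower gene was Tnfaip3, which encodes the inhibitor A20 and is a target of NF-kB, with a log2 ratio of -1.77 (-1.98 to -1.56).

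**Figure D2:**
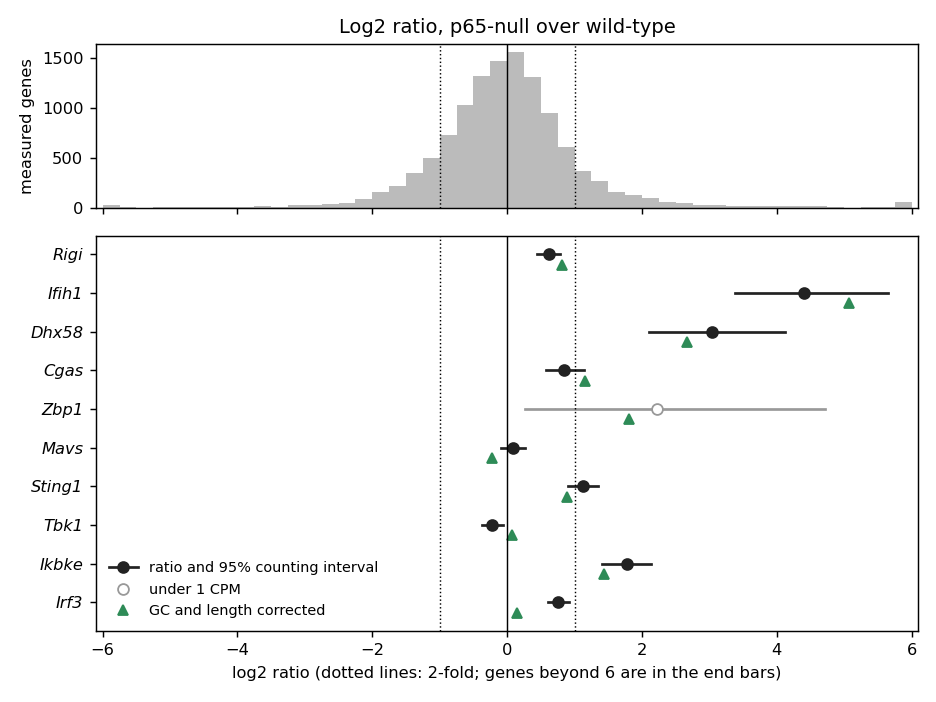
Top, the number of measured genes by log2 ratio of p65-null over wild-type, those beyond 6 in either direction being counted in the end bars. Bottom, the log2 ratio of each member with its 95% counting interval, the open circle marking Zbp1 under 1 CPM and triangles the values after GC and length correction; Ifih1, Dhx58 and Ikbke have intervals wholly past 2-fold, at log2 ratios of 4.40, 3.04 and 1.77.

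Ranked per kilobase of transcript, the members fell into tiers, and neighbours within a tier often did not differ beyond counting error. In p65-null cells, Irf3 led at 22.6 CPM per kilobase, followed by Sting1 (12.2), Tbk1 (11.3), Mavs (10.4) and Rigi (9.64), and no neighbours among these last 4 differed beyond their intervals. Ikbke (4.44) and Cgas (3.82) came next without a difference beyond their interval, then Dhx58 (1.77) and Ifih1 (1.46), again without one, and Zbp1 (0.332). In wild-type cells, Irf3 (13.3 CPM per kilobase) and Tbk1 (13.1) did not differ beyond their interval, and Mavs followed at 9.81. Rigi (6.28) and Sting1 (5.61) formed the next pair, then came Cgas (2.11) and Ikbke (1.3). Dhx58 (0.215), Zbp1 (0.0712) and Ifih1 (0.069) lay last, and neighbours among these 3 did not differ beyond counting error. Sting1 thus ranked 2 in p65-null cells and 5 in wild-type cells.

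**Figure D3:**
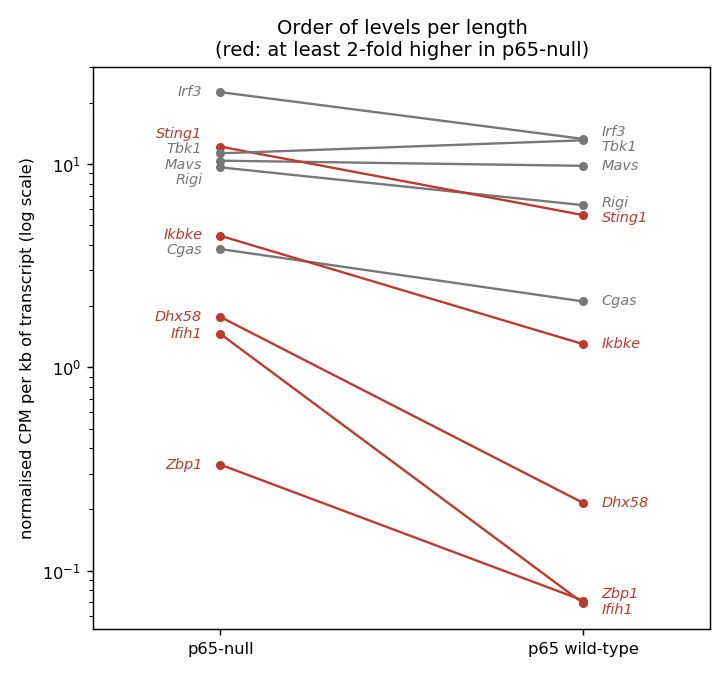
Normalised CPM per kilobase of transcript (log axis) of the 10 members in p65-null cells (left) and wild-type cells (right), lines joining each gene. Red marks the genes higher by 2-fold or more in p65-null cells, among which Sting1 ranked 2 in p65-null and 5 in wild-type cells and Ifih1 stood at 1.46 against 0.069 CPM per kilobase.

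Genes for proteins that act around the sensors were mostly within 2-fold. Of 23 measured cofactors and regulators of the RNA sensors, 2 were higher by 2-fold or more in p65-null cells and 7 lower by 2-fold or more, with a median log2 ratio of -0.45. Over all measured genes, 12.2% were higher and 13.7% lower. The lower genes numbered 4 after the GC and length correction and 10 with ribosomal protein scaling. Rnf135 (Riplet), the ubiquitin ligase that activates RIG-I, was at 13 CPM in p65-null cells and 4.86 CPM in wild-type cells. Its log2 ratio was 1.42 (1.08 to 1.79), or 1.02 corrected. Oasl2, an interferon-inducible OAS-like gene, was at 3.7 CPM against 0.189 CPM, a log2 ratio of 4.29 (2.86 to 6.22), and passed the minimum only through p65-null cells. Trim25, another ligase reported to act on RIG-I, was at -0.09 (-0.31 to 0.12). The lower genes with the firmest intervals were Ddx3x, Lrrfip1 and Mex3c. The helicase gene Ddx3x was at -1.5 (-1.57 to -1.43), or -0.64 corrected, and Lrrfip1 at -1.54 (-1.66 to -1.42). The ubiquitin ligase gene Mex3c was at -1.59 (-1.73 to -1.45), or -1.40 corrected.

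Among 39 measured partners of MAVS, STING and the kinases, 2 were higher by 2-fold or more, 5 lower by 2-fold or more and 32 within 2-fold, with a median of -0.13. The lower share is close to the 13.7% over all measured genes, and the higher share is under the 12.2%. Ddx3x, counted above among the lower cofactors, is in this list too and is 1 of the 5 lower genes. With ribosomal protein scaling 1 was higher and 10 lower. Tank, a scaffold that holds TBK1 and IKK-epsilon, was at 11.2 CPM in p65-null cells and 38.3 CPM in wild-type cells, a log2 ratio of -1.78 (-2.03 to -1.54), or -0.94 after the correction. The other scaffolds of these kinases were Azi2 at -0.93 (-1.12 to -0.74), or -0.40 corrected, and Tbkbp1 at 0.06 (-0.69 to 0.79), or -0.46 corrected. Traf3, a ubiquitin ligase downstream of MAVS, was at -0.66 (-0.80 to -0.53). Tomm70a, a mitochondrial import receptor, was at -1.44 (-1.53 to -1.36), or -0.48 corrected. The higher genes were the STING partners Zdhhc1 at 1.60 (1.32 to 1.89), or 1.00 corrected, and Tmem203 at 1.39 (0.99 to 1.80), or 0.80 corrected, and 35.1% of the Tmem203 transcript is shared with exons of Ndor1 on the opposite strand. After the correction 0 genes of this list were higher by 2-fold or more and 2 lower by 2-fold or more.

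Of 21 further measured cytosolic sensors, 4 were higher by 2-fold or more and 1 was lower by 2-fold or more, with a median of -0.04, where 12.2% and 13.7% of all measured genes were. With a minimum of 5 CPM 1 was higher and 1 lower. Ifi204, a DNA-binding protein of the AIM2-like family, was at 12 CPM in p65-null cells and 2.43 CPM in wild-type cells, a log2 ratio of 2.30 (1.84 to 2.77). Oas1a and Oas1c, which encode oligoadenylate synthetases or their relatives, had 33.5 and 37 fragments in p65-null cells and 0 in wild-type cells. Against a floor of 3 fragments they were 15.6- and 17.3-fold higher, with intervals from 12.2 and 13.3 upward. They passed the minimum only through p65-null cells. Both are members of families of near-identical copies, as is Ifi204, and reads may be shared among the copies. Eif2ak2, which encodes the RNA-activated kinase PKR, was at -0.51 (-0.68 to -0.34), or 0.01 after the correction. The lower gene was Polr3g, a subunit of RNA polymerase III, at -2.30 (-2.76 to -1.83).

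Most of the genes that the relay induces were scarce in wild-type cells. Of 8 measured outputs, 5 were higher by 2-fold or more in p65-null cells and 1, the chemokine gene Cxcl10, was lower at -1.02 (-1.40 to -0.63), or -0.92 corrected, with a median of 3.30, where 12.2% of all measured genes were higher and 13.7% lower. All 5 higher genes had levels under 1 CPM in wild-type cells and passed the minimum only through p65-null cells, so this count and median are no support for a difference of the list. With a minimum of 5 CPM 3 genes were left, of which 0 were higher and 1 lower, with a median of 0.19. Ifit1, which encodes an antiviral RNA-binding protein, had 99 fragments in p65-null cells and 1 in wild-type cells. The ubiquitin-like modifier gene Isg15 had 89 and 0, or 41.5-fold higher against a floor of 3 fragments, with an interval from 33.1 upward. Usp18, whose product removes that modifier, had 67 and 4. The interferon genes looked up, Ifnb1, Ifna4 and Ifna2, were not analysed here. Of 12 measured genes of the interferon receptor and STAT relay, 6 were higher by 2-fold or more and 1 was lower, with a median of 0.61. Over all measured genes, 12.2% were higher and 13.7% lower. The 6 include Usp18, which passed the minimum only through p65-null cells and is also among the outputs. They include Irf9, counted among the IRF genes as well, so the lists are not separate counts. After the GC and length correction 4 were higher and 0 lower, with a median of 0.24, and with ribosomal protein scaling 3 were higher and 1 lower. Stat2 and Irf9 were at 1.77 (1.5 to 2.04) and 2.61 (2.27 to 2.95), while the receptor genes Ifnar1 and Ifnar2 were at -0.18 and -0.28. Ptpn2, a phosphatase that limits JAK and STAT signalling, was at -1.13 (-1.32 to -0.94), or -0.21 corrected.

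**Figure D4:**
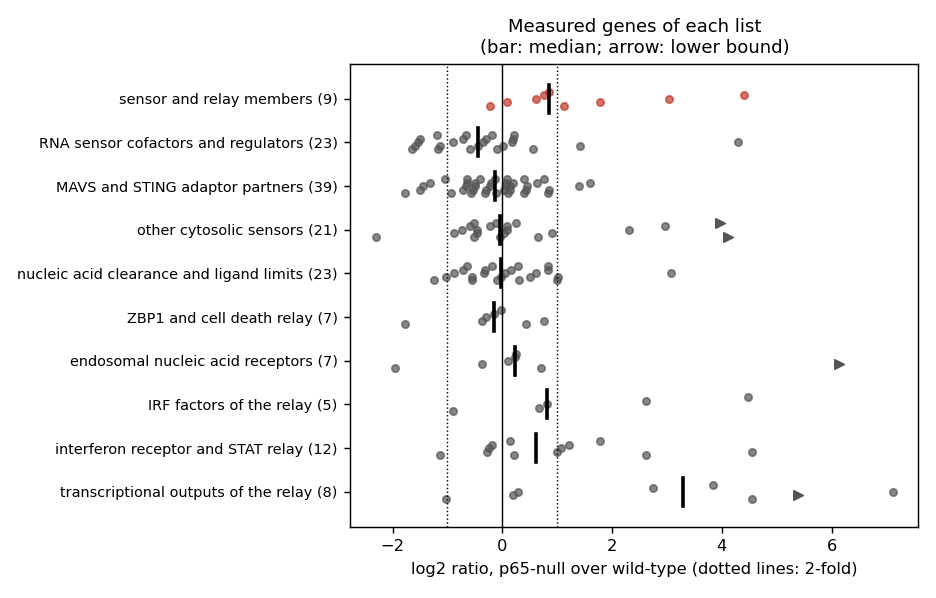
Log2 ratios of p65-null over wild-type for the measured members (red, 9 genes) and the measured genes of 9 related lists, with the number of genes in brackets. A bar marks each median, and arrows (lower bound in the figure) mark ratios against the floor of 3 fragments. Medians were 0.85 for the members, -0.45 for the cofactors, -0.13 for the adaptor partners and 3.30 for the outputs of the relay, whose 5 higher genes passed the minimum only through p65-null cells.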

How the data were processed

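RNA of 1 p65-null and 1 wild-type culture was sequenced on an Illumina instrument, per the labels' protocols. STAR 2.4, HOMER, bcl2fastq 2.16, edgeR and the build mm10 are listed, per the submitters' processing notes, with no roles. The deposited values are a scaled signal per RefSeq transcript, although named raw counts: both columns sum to about the same total, 18117930 for p65-null and 18117934 for wild-type. Within a column all 15678 p65-null and 15858 wild-type values above 0 were whole multiples of 1 step (0.587 and 0.436) within a tolerance of 0.0055 units (100%). Even multiples made up 75.7% and 72.8% of values of up to 20 steps, so a fragment was taken as 2 steps, an odd step being a read counted alone (0.5 fragment). With 1 library per group no count test was run, there being no residual degrees of freedom.

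Symbols came from RefSeq (GRCm38.p6, 16743 transcripts) or GENCODE M21 (83), and transcript lengths and GC content from GENCODE M21 (GRCm38, the mm10 build of the files). Library sizes were scaled by TMM in edgeR 4.0.16 (R 4.3.3), with factors of 0.981 for p65-null and 1.02 for wild-type. Intervals are exact Clopper-Pearson intervals on fragments rounded to whole numbers, ratios of ratios are conditional odds ratios with exact intervals (scipy 1.17.1), and both cover counting error only. Zero counts took a floor of 3 fragments, and no ratio was given where both libraries were at or under it. The ratio step was tested on simulated counts. Alternatives were total counts, DESeq2 1.42.0 size factors, scaling by upper quartile or by 77 ribosomal protein genes, no minimum or 5 CPM, thinning, a prior count of 2, and correction for GC content and length by loess (span 0.3). The members and lists were chosen with earlier results of these data known, and some genes are in more than 1 list. Named genes are the members, Rela, up to 3 higher and 3 lower genes per list, and 7 direct partners. The genes of a list were those whose interval end nearest 0 lay farthest from 0. Other genes named (Eif2ak2, Irf5, Mlkl, Ifnar1, Ifnar2, the marker genes, genes that overlap others, the 5 genes that separate the cultures, and in the closing section Enpp1, Tlr3, Tlr7, Rnaseh2a, Rnaseh2b and Rnaseh2c) and the pairs of genes were chosen after their values were seen.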

Additional observations from a re-analysis of the deposited data

How the results depend on the processing

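No paired analysis was possible because each genotype had 1 library. The direction of 8 of the 10 member genes held under each of the 7 alternatives that rescale, thin or correct the values, and Mavs and Tbk1 were the exceptions. With a minimum of 5 CPM, 2 members were higher by 2-fold or more, since Ifih1 and Dhx58 are less abundant than that, the outputs of the relay held 0 higher genes of 3, and 924 genes were higher. Scaling to ribosomal protein genes moved the median of all genes by -0.41 and that of the members to 0.45, and left 900 genes higher by 2-fold or more and 3017 lower. Of the members, 3 were past 2-fold there. Upper quartile factors moved the median of all genes by 0.11. With no minimum, 2230 genes were higher, and the members past 2-fold numbered 5. The share of higher genes among those at least 2-fold apart was 46.9%, against 55% with upper quartile factors and 23% with ribosomal protein scaling. Log2 ratios followed transcript GC content across measured genes (Spearman 0.44), genes not being independent replicates. Of the values for single genes under alternatives, 858 stayed within the counting interval, 317 moved outside it and 0 of those past 2-fold changed sign. Zbp1, Ifih1 and Dhx58 rest on 3, 8 and 11 wild-type fragments.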

Other observations

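Genes of nucleic acid sensing in endosomes were mostly within 2-fold, with 1 large difference upward. Unc93b1, the chaperone that carries nucleic acid receptors to endosomes, had 151 fragments in p65-null cells and 0 in wild-type cells. This is 70.4-fold higher against a floor of 3 fragments, with an interval from 56.6 upward. The receptors themselves were scarce, with 19.5 and 9 fragments of Tlr3 and 0 and 3 fragments of Tlr7 in p65-null and wild-type cells, and Tlr8 and Tlr9 were not analysed here. The coreceptor gene Cd14 was at 4.39 CPM in p65-null cells and 17 CPM in wild-type cells, a log2 ratio of -1.96 (-2.34 to -1.57). Of 7 measured genes of this list, 1 was higher by 2-fold or more and 1 lower by 2-fold or more. Over all measured genes, 12.2% were higher and 13.7% lower. Unc93b1 passed the minimum only through p65-null cells.

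Of 23 measured genes that remove nucleic acid or limit its ligands, 2 were higher by 2-fold or more and 2 lower, with a median of -0.03. Both shares are under those over all measured genes, 12.2% higher and 13.7% lower. Enpp3, an ectonucleotide pyrophosphatase gene, was at 6.34 CPM in p65-null cells and 0.755 CPM in wild-type cells, a log2 ratio of 3.07 (2.30 to 3.93). Enpp3 passed the minimum only through p65-null cells. Its relative Enpp1, which degrades cGAMP outside cells, was at 0.04 (-0.15 to 0.23). Trex1, the exonuclease that clears cytosolic DNA, was at 1.02 (0.75 to 1.28), or 0.44 corrected for GC and length, and all of its transcript (100%) overlaps exons of Atrip. The subunit genes of RNase H, Rnaseh2a, Rnaseh2b and Rnaseh2c, were at 0.61, -0.09 (-0.30 to 0.12) and 0.83, or 0.35, 0.14 and 0.26 corrected. The lower genes were Lrrc8c, a subunit of volume-regulated channels that pass cGAMP, at -1.24 (-1.42 to -1.07), or -0.84 corrected, and Skic3, of the cytosolic RNA decay complex, at -1.03 (-1.19 to -0.87), or -0.66 corrected.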
